A study of Homo sapiens with 18 samples.

Results

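Intergenic-guide control libraries of HEK293T cells that received SaABE were set against those that received SpCBE. HEK293T is an established human embryonic kidney cell line. SaABE joins the adenine deaminase ABE8e to the nickase of Staphylococcus aureus Cas9, and SpCBE joins the cytosine deaminase evoCDA1 to the nickase of Streptococcus pyogenes Cas9. Libraries were chosen by the editor and the guide in their labels, which gave 3 SaABE and 3 SpCBE libraries, 6 of the 18 in the series. Per the labels, 750000 cells were transfected with 1 plasmid carrying editor and guide, selected in puromycin for 48 hours and harvested 72 hours after transfection, and this holds for both groups. The other 12 libraries carry a guide aimed at an NRF1 exon 7 splice site, or a further editor, SpABE, which has ABE8e on the S. pyogenes nickase. Nickase, deaminase, guide and intergenic site all differ between the groups compared, so their parts cannot be told apart from this comparison alone. SpABE and SpCBE intergenic libraries share nickase and site and differ in deaminase, whereas SaABE and SpABE differ in nickase and site together. The series holds no untransfected library among those used here, so each difference is between the editors and neither group is a baseline.

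A base editor changes single bases without a double-strand break. The deaminase converts adenine to inosine, read as guanine, or cytosine to uracil, read as thymine, and the nickase cuts the opposite strand. Cells answer misfolded protein through HSF1, which binds heat-shock elements and raises chaperone genes. They answer foreign or misplaced nucleic acid through sensors such as RIG-I, whose signal leads to interferon-stimulated genes, and DNA damage through p53. HEK293T cells carry the SV40 large T antigen, which binds p53.

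The intergenic sites are shown because the site, beside the editor, differs by design between the groups, with the bases of the protospacer-adjacent motif in capitals.
SaABE intergenic site: ccattatcgtgacgctatcgAGGGAT
SpCBE intergenic site: ttgactgcacacaactgggcTGG
The SaABE protospacer lies on hg38 at chr10:131349102-131349121 on the minus strand, and the SpCBE protospacer at chr13:102967577-102967596 on the plus strand. Each protospacer of 20 bases had 1 perfect match in the genome and overlapped no annotated gene in GENCODE 44. The SaABE site holds 4 adenines, and the SpCBE site holds 6 cytosines. The gene nearest to the SaABE site was TCERG1L, 37381 bases away. Among tested genes within 1000000 bases, 0 of 6 around the SaABE site and 0 of 7 around the SpCBE site were called by the rule given below. Over all tested genes 8.04% were called, so with so few genes a count of 0 says little about the sites. TCERG1L had a level of 0.543, 0.692 and 0.825 CPM (counts scaled to a common library total) in SaABE libraries, against 0.444, 0.402 and 0.670 CPM in SpCBE libraries, which overlap. ERCC5, a DNA repair endonuclease gene 91582 bases from the SpCBE site, had 25.3, 27.5 and 27.2 CPM in SaABE libraries, against 32.7, 31.6 and 30.04 CPM in SpCBE libraries. Its log2 fold change of -0.24 passed the adjusted p (0.00017, edgeR) but not the fold threshold. So did those of PPP2R2D and BNIP3 around the SaABE site, 0.13 and 0.14, and of TPP2 around the SpCBE site, -0.25. The adjusted p alone passed 40.6% of all tested genes.

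Total estimated counts ranged from 29829635 to 31168046 in SaABE libraries and from 31676102 to 40687447 in SpCBE libraries. The 10 most abundant genes held 5.86% to 6.05% of counts in SaABE libraries and 3.86% to 3.90% in SpCBE libraries, and messages of the mitochondrial genome held 1.14% to 1.19% in SaABE libraries and 1.04% to 1.09% in SpCBE libraries. Of 8 markers of HEK293 cells all were tested, with VIM, KRT8 and KRT18 present in every library. Of 27 markers of blood, fibroblast and epithelial cells 15 were tested, with PTPRC, CD3E, HBB, DCN and KRT5 among those too low to test. The summed levels of the blood, fibroblast and epithelial markers were 5.08 to 5.80, 136 to 145 and 14.5 to 14.9 CPM in SaABE libraries, against 5.63 to 6.22, 161 to 164 and 10.5 to 11.3 CPM in SpCBE libraries. The part of these shifts in the results was not tested. In these bulk samples, fewer cells of a kind and less RNA per cell cannot be told apart.

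Of 58870 genes in the table, 17743 were expressed highly enough to be tested. Levels are CPM scaled for library composition, and a fold change is the SaABE level over the SpCBE level on the log2 scale, with its standard error (SE). A gene was called at a Benjamini-Hochberg adjusted p under 0.05 in edgeR's quasi-likelihood test and an absolute log2 fold change over 0.5. SaABE and SpCBE libraries differed in 1426 called genes, 8.04% of those tested. Of these, 675 were higher in SaABE (3.80%) and 751 were lower (4.23%). The adjusted p alone passed 7207 genes (40.6%). The median log2 fold change over all tested genes was -0.01.

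Most called genes were weakly expressed. Of the 1426, 954 had a mean under 5 CPM over the 6 libraries, 15.1% of the 6307 tested genes at that level. The other 472, 246 higher and 226 lower, were 4.13% of the 11436 tested genes with at least 5 CPM. Among those 472, changes of more than 2-fold were commoner upward, with 59 genes higher and 22 lower in SaABE.

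**Figure D1:**
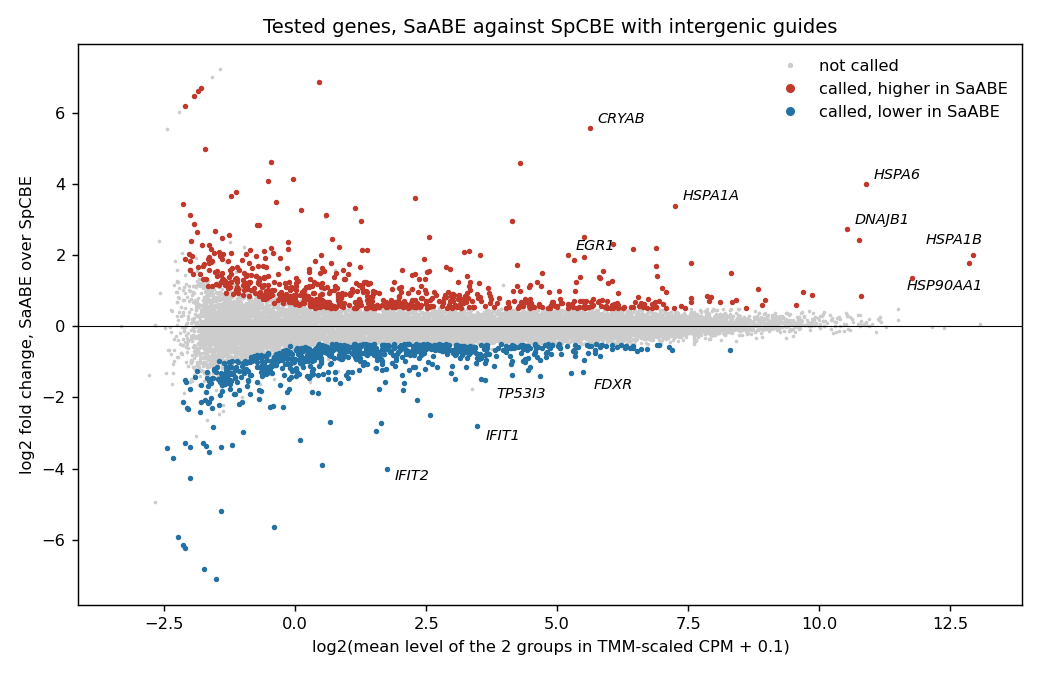
Tested genes as points, with the log2 of the mean level over the SaABE and SpCBE libraries (CPM, with 0.1 added) on the x axis and the log2 fold change of SaABE over SpCBE on the y axis. Red points are the called genes higher in SaABE and blue points those lower; the heat-shock genes stand alone at high level and high fold change.

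Heat-shock genes were the abundant messages that set SaABE libraries apart. Of 26 genes on a list of heat-shock chaperones and HSF1 targets, DNAJA4 was too low to test. Of the other 25, 23 were higher in SaABE at the adjusted p and 0 were lower, where 20.1% and 20.6% of all tested genes were. By the fuller rule 18 of the 25 were called higher, beside 3.80% of all tested genes. The median log2 fold change of the list was 0.78. The summed level of the list was 44305 to 47621 CPM in SaABE libraries and 16739 to 16862 CPM in SpCBE libraries. The same sum in SpABE libraries was 26823 to 27403 CPM, between the others.

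CRYAB, the small heat-shock protein alpha-B crystallin, had 90.4, 98.0 and 100.1 CPM in SaABE libraries, against 1.53, 2.36 and 2.16 CPM in SpCBE libraries. Its log2 fold change was 5.56 (SE 0.08), a 47.2-fold difference (adjusted p = 3.3e-25, edgeR). SpABE libraries had 24.02, 24.7 and 23.7 CPM, and no library of one editor reached into another's range. No overlap of SaABE with SpCBE was a condition for naming a gene among the largest rises. Of all 17743 tested genes, 8350 had no such overlap.

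HSPA6, which was not on the list, is an HSP70 gene that human cells keep nearly silent until stressed. It had 3538, 3593 and 3562 CPM in SaABE libraries, against 217, 229 and 224 CPM in SpCBE libraries. The log2 fold change was 3.997 (SE 0.03; adjusted p = 6.9e-30, edgeR). HSPA7, annotated as an unprocessed pseudogene closely related to HSPA6, followed at 41.5, 34.6 and 36.5 CPM in SaABE libraries, against 1.19, 2.01 and 1.43 CPM in SpCBE libraries. The pair cannot be cleanly separated by short reads, and with their counts summed the log2 fold change was 4.003 (SE 0.03).

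HSPA1A and HSPA1B encode the same inducible HSP70 protein from near-identical genes. HSPA1B had 12536, 12908 and 12392 CPM in SaABE libraries, against 3318, 3123 and 3008 CPM in SpCBE libraries, and HSPA1A had 291, 272 and 267 CPM in SaABE libraries, against 22.8, 29.0 and 26.996 CPM in SpCBE libraries. How reads were shared between the copies is not given in the sources used here, so the separate log2 fold changes of 2.0015 for HSPA1B and 3.39 for HSPA1A are uncertain. Summed, the pair had a log2 fold change of 2.02 (SE 0.04; adjusted p = 8.5e-22, edgeR).

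Partners of HSP70 rose with it. DNAJB1, the HSP40 co-chaperone that loads clients onto HSP70, had 2505, 2597 and 2585 CPM in SaABE libraries, against 388, 382 and 389 CPM in SpCBE libraries (log2 fold change 2.73, SE 0.03, adjusted p = 9.4e-29, edgeR). HSPH1, the HSP110 nucleotide exchange factor, had 2779, 3069 and 2954 CPM in SaABE libraries, against 564, 540 and 546 CPM in SpCBE libraries (log2 fold change 2.42, SE 0.03, adjusted p = 2.2e-25). The SaABE and SpCBE libraries did not overlap for either gene, which their naming among the largest rises required. BAG3, which links HSP70 to the small heat-shock proteins, was called higher with a smaller log2 fold change of 0.78.

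The HSP90 system was also higher in SaABE. HSP90AA1, the inducible cytosolic HSP90, had 10759, 12346 and 11679 CPM in SaABE libraries, against 3373, 3362 and 3449 CPM in SpCBE libraries (log2 fold change 1.77, SE 0.04, adjusted p = 2.0e-21, edgeR). HSP90AB1, its constitutive paralog, had 4836, 5153 and 5074 CPM in SaABE libraries, against 1915, 1993 and 1939 CPM in SpCBE libraries. The HSP90 co-chaperone genes were called higher too, with log2 fold changes of 1.49 for CHORDC1, 0.73 for FKBP4, 0.69 for AHSA1 and 0.60 for STIP1.

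Other list members had log2 fold changes that differed widely. HSPA8, the constitutive HSC70, had 3317, 3457 and 3459 CPM in SaABE libraries, against 2424, 2423 and 2496 CPM in SpCBE libraries, a log2 fold change of 0.48 that passed the adjusted p and missed the fold threshold. The mitochondrial chaperonin HSPD1 had a log2 fold change of 0.23, and its partner HSPE1 one of 0.85. HSF1 itself, the regulator, had 93.1, 85.8 and 94.3 CPM in SaABE libraries, against 87.6, 85.3 and 85.1 CPM in SpCBE libraries, which overlap (log2 fold change 0.08, adjusted p = 0.084, edgeR). HSF1 and HSF2 were the 2 tested members that did not pass the adjusted p.

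**Figure D2:**
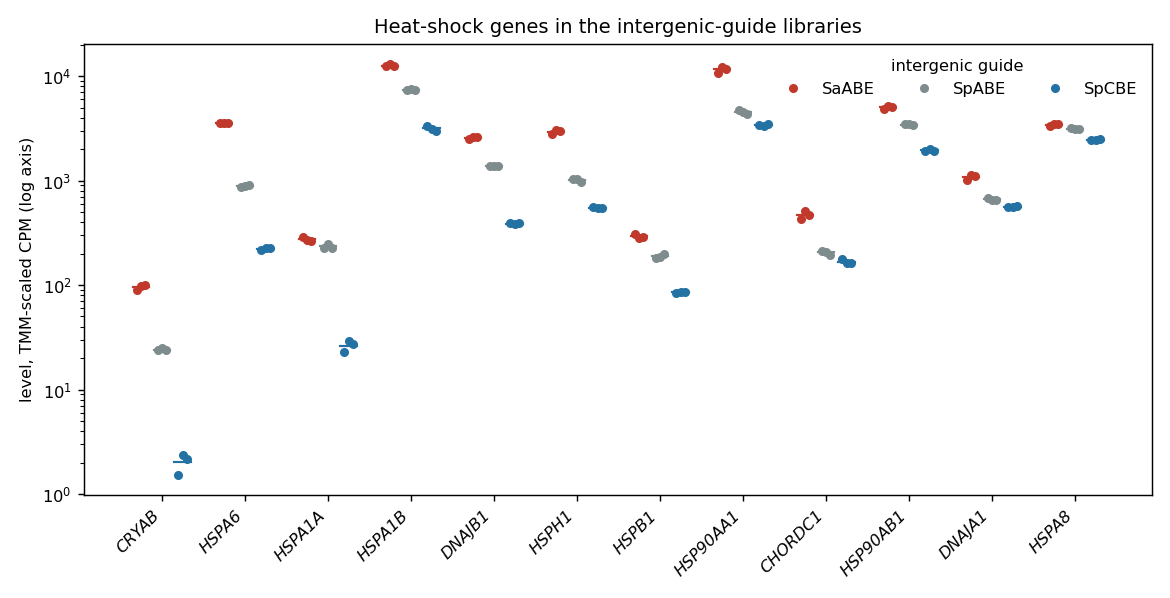
Levels of 12 heat-shock genes in each intergenic-guide library (TMM-scaled CPM on a log axis), with SaABE in red, SpABE in grey and SpCBE in blue; points are libraries and short lines are group means. The SaABE libraries lie above the SpCBE libraries for all 12 genes, and the SpABE libraries lie between them for all 12, nearer to SaABE for HSPA1A and nearer to SpCBE for HSP90AA1. The 12 were picked from genes higher in SaABE. Of the 25 tested list members, 22 had no overlap of SaABE with SpCBE, and 20 had an SpABE mean between theirs.

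Promoter windows of heat-shock genes called higher are printed because the members moved together, with each match to the heat-shock element in capitals. The element was searched on both strands as GAA, TTC and GAA with any 2 bases between neighbouring units, which reads TTC, GAA and TTC on the opposite strand.
HSPA6: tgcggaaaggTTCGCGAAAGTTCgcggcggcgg
CHORDC1: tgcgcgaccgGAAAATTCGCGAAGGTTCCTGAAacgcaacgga
SERPINH1: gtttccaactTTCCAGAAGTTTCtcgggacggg
DNAJB6: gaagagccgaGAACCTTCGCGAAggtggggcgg
They come from RefSeq promoters on GRCh38.p14, from 250 bases before to 50 bases after each gene's start, at chr1:161524456-161524488 (plus strand), chr11:90223077-90223119 (minus strand), chr11:75562167-75562199 (plus strand) and chr7:157336863-157336895 (plus strand). The match begins 74 bases before the start of HSPA6 and 76 bases before that of SERPINH1, and in CHORDC1 3 overlapping matches make 1 run. Promoters were matched for 12219 tested genes, and 43 of these (0.352%) hold the element. It stands in 9 of 323 matched promoters of genes called higher (2.79%) and in 2 of 481 of genes called lower (0.416%), beside 133 of 27305 of all RefSeq promoters (0.487%). Among the heat-shock list it stands in 4 of 22 matched promoters, those of CHORDC1, DNAJA1, HSPA8 and SERPINH1, and the letters are not in the windows of DNAJB1, HSPH1, HSPA1A, HSPA1B and HSP90AA1. A match is a description of letters and shows no binding.

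Several other genes with the largest rises are not classical chaperones. FOXJ1, a transcription factor of motile cilia, had 31.1, 31.1 and 31.2 CPM in SaABE libraries, against 4.30, 3.62 and 4.24 CPM in SpCBE libraries (log2 fold change 2.95, SE 0.07, adjusted p = 6.0e-21, edgeR). FBXL14, a ubiquitin ligase receptor, had 80.5, 73.5 and 77.8 CPM in SaABE libraries, against 12.6, 13.6 and 14.2 CPM in SpCBE libraries. KLHL25, an adaptor of a CUL3 ubiquitin ligase, had 111, 113 and 109 CPM in SaABE libraries, against 21.8, 22.7 and 22.2 CPM in SpCBE libraries. These are ubiquitin system genes with 5.75-fold and 5.00-fold differences. DUSP8, a phosphatase of stress-activated kinases, and ZFAND2A, an arsenite-inducible protein that associates with the proteasome, had log2 fold changes of 2.19 and 2.16. The last of the 12 largest rises was HSP90AB3P, a processed pseudogene of HSP90AB1, with a log2 fold change of 2.51 (SE 0.13).

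UBB, TCP1 and HIKESHI, chosen after their values were seen, were called higher. UBB had 2246, 2327 and 2294 CPM in SaABE libraries, against 1269, 1304 and 1232 CPM in SpCBE libraries, and encodes polyubiquitin. TCP1, a subunit of the cytosolic chaperonin, had a log2 fold change of 0.88, and HIKESHI, which carries HSP70 into the nucleus, 0.71. Of 33 tested proteasome subunits 0 were called in either direction. Of all tested genes 8.04% were called, and of those with at least 5 CPM 4.13%, so a count of 0 says little. At the adjusted p alone 17 passed upward and 4 downward, where 20.1% and 20.6% of all tested genes did. The median log2 fold change of the subunits was 0.08.

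Immediate-early genes, the first transcribed after growth or stress signals, moved mostly upward. Of 34 tested, 19 were higher and 7 lower in SaABE at the adjusted p, where 20.1% and 20.6% of all tested genes were. By the fuller rule 11 were called higher and 2 lower, beside 3.80% and 4.23% of all tested genes. The median log2 fold change was 0.26. EGR1 had 59.6, 54.9 and 61.3 CPM in SaABE libraries, against 16.1, 13.8 and 14.2 CPM in SpCBE libraries (log2 fold change 1.99, SE 0.06, adjusted p = 6.7e-19, edgeR). SpABE libraries were near SaABE for EGR1, at 53.2, 53.2 and 52.5 CPM. JUND, a subunit of AP-1, had 186, 170 and 183 CPM in SaABE libraries, against 53.3, 55.8 and 59.1 CPM in SpCBE libraries, and here SpABE libraries were near SpCBE at 61.4, 68.9 and 74.9 CPM. FOS and FOSB, further AP-1 subunits, had log2 fold changes of 1.14 and 1.10. JUN went the other way, with a log2 fold change of -0.16, and IER3 was called lower at -0.88.

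The integrated stress response, in which the factor ATF4 raises amino acid and redox genes when translation initiation is curbed, was higher in part. Of 29 tested genes 17 passed the adjusted p upward and 2 downward (1 without SaABE replicate 1, SpCBE replicate 1 or SpCBE replicate 3), 6 were called higher and 0 lower, and the median log2 fold change was 0.25. Over all tested genes 20.1% passed upward and 20.6% downward, and 3.80% were called higher and 4.23% lower. CHAC1, a glutathione-degrading enzyme, had 66.5, 59.9 and 62.1 CPM in SaABE libraries, against 17.3, 17.8 and 16.4 CPM in SpCBE libraries (log2 fold change 1.87, SE 0.06, adjusted p = 3.5e-17, edgeR). DDIT3, the pro-apoptotic factor CHOP, had 86.2, 89.6 and 87.3 CPM in SaABE libraries, against 39.3, 36.9 and 36.4 CPM in SpCBE libraries. The groups did not overlap for either gene, as for 8350 of all 17743 tested genes. ATF4 itself had a log2 fold change of 0.41. The serine metabolism genes PHGDH, PSAT1 and SHMT2, also ATF4 targets, had values of -0.01, 0.07 and 0.01, none of which passed the test. Endoplasmic reticulum folding genes had 13 of 21 higher, 3 lower (1 without SaABE replicate 1 or SpCBE replicate 2), 0 called and a median of 0.13.

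Recombination and Fanconi genes were mostly lower in SaABE. Of 28 tested, 20 were lower and 2 higher in SaABE at the adjusted p, where 20.6% and 20.1% of all tested genes were. The median log2 fold change was -0.21. Leaving out SaABE replicate 3 left 0 higher, and leaving out SaABE replicate 2, SpCBE replicate 2 or SpCBE replicate 3 left 1. RAD51C and ATM were called lower. RAD51C, a recombination factor, had 62.4, 63.6 and 60.8 CPM in SaABE libraries, against 93.0, 94.2 and 98.2 CPM in SpCBE libraries (log2 fold change -0.61, SE 0.03, adjusted p = 5.3e-13, edgeR). FANCD2, BRCA1 and BRCA2 had log2 fold changes of -0.46, -0.22 and -0.21. Base excision repair genes, which handle deaminated bases, were closer to the background: 4 of 22 were higher and 5 lower, with a median of -0.06. None was called, where 8.04% of all tested genes were.

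Interferon-stimulated genes were lower in SaABE than in SpCBE libraries as a group. Of 34 on the list, MX1, MX2, OAS1 and XAF1 were too low to test. Of the other 30, 25 were lower at the adjusted p and 0 were higher, where 20.6% of all tested genes were lower. By the fuller rule 18 were called lower, beside 4.23% of all tested genes, and the median log2 fold change was -1.13. Their summed level was 284 to 295 CPM in SaABE libraries and 400 to 476 CPM in SpCBE libraries, and at 294 to 299 CPM SpABE libraries were close to SaABE. Most of these messages are scarce in these cells, so their values rest on few counts.

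IFIT1, which binds viral RNA without a normal cap, had 2.58, 2.60 and 3.17 CPM in SaABE libraries, against 15.6, 25.3 and 17.03 CPM in SpCBE libraries. The log2 fold change was -2.80 (SE 0.16; adjusted p = 8.3e-13, edgeR), a 6.96-fold lower level. IFIT2, a neighbouring family member, had 0.475, 0.296 and 0.363 CPM in SaABE libraries, against 5.27, 7.59 and 5.58 CPM in SpCBE libraries. The SpCBE libraries themselves were not uniform, and replicate 2 was the highest of the 3 for IFIT1, IFIT2, IFIT3, IFI6, OAS3 and ISG15. Leaving it or any other of the 6 libraries out left 24 to 26 of the 30 members lower and 0 higher, and without SpCBE replicate 2 the median was -1.01.

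IFIT3 had 0.713, 0.395 and 0.825 CPM in SaABE libraries, against 4.16, 6.29 and 4.51 CPM in SpCBE libraries (log2 fold change -2.95, SE 0.22, adjusted p = 2.1e-10, edgeR). ISG15, a ubiquitin-like modifier, had 2.72, 3.29 and 2.94 CPM in SaABE libraries, against 5.55, 7.97 and 6.0025 CPM in SpCBE libraries (log2 fold change -1.13, SE 0.14). OAS2, a synthase of the oligoadenylates that activate RNase L, was listed at 0 in all 3 SaABE libraries, against 0.361, 0.568 and 0.274 CPM in SpCBE libraries. Set against 3 counts over the SaABE group, 0.0333 CPM, OAS2 was at least 12.05-fold lower. The list's median stayed at -1.13 with OAS2 at that bound.

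Among sensors and regulators around interferon, some were called lower in SaABE and others were not called. DDX58, which encodes the RNA sensor RIG-I, had 4.48, 4.71 and 4.32 CPM in SaABE libraries, against 9.99, 13.1 and 10.1 CPM in SpCBE libraries (log2 fold change -1.30, SE 0.11, adjusted p = 7.2e-10, edgeR). IFIH1, which encodes the sensor MDA5, had a log2 fold change of -0.92, and of 13 tested nucleic acid sensing genes 5 were lower, 0 higher (1 without SaABE replicate 1 or SpCBE replicate 2) and these 2 called. Over all tested genes 20.6% were lower and 20.1% higher at the adjusted p, and 4.23% were called lower. IRF1 had 9.71, 10.0 and 8.78 CPM in SaABE libraries, against 9.19, 10.1 and 9.48 CPM in SpCBE libraries, which overlap. Chemokine genes looked up after their values were seen were at the edge of detection: CCL5 had 0, 0 and 0.0660 CPM in SaABE libraries, against 1.19, 1.58 and 1.07 CPM in SpCBE libraries. NF-kB target genes as a list had 3 of 16 higher, 4 lower and a median of 0.04. These counts at the adjusted p are near the shares over all tested genes. Without SpCBE replicate 2, 1 was higher, and without SaABE replicate 3 the median was -0.004. By the fuller rule 2 of the 16 were called lower and 0 higher, beside 4.23% and 3.80% of all tested genes.

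**Figure D3:**
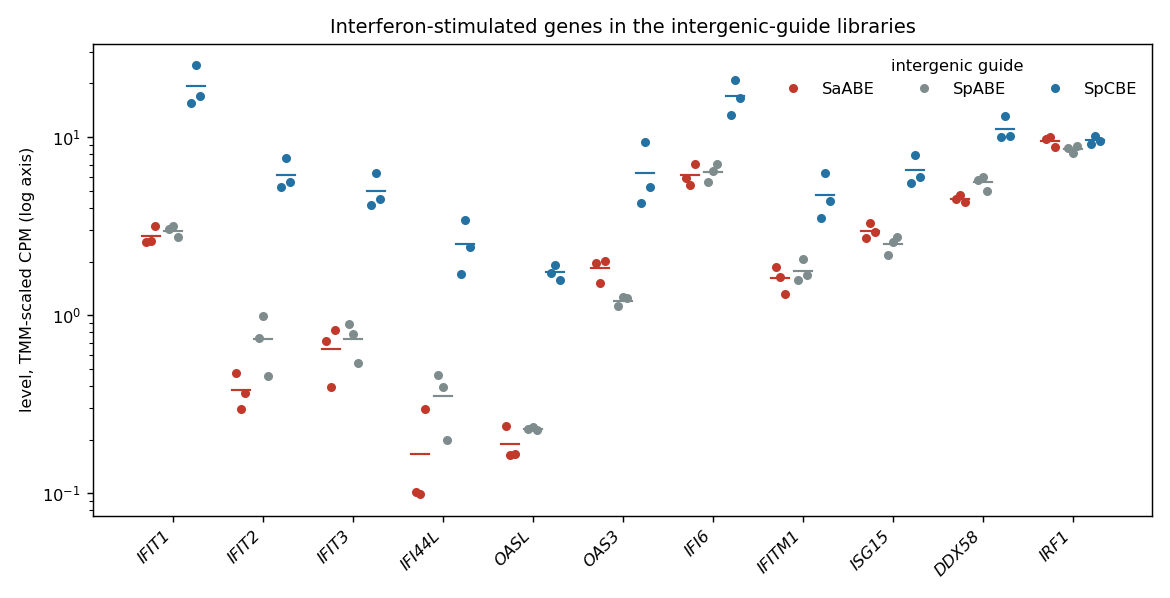
Levels of 11 interferon-stimulated or sensor genes in each intergenic-guide library (TMM-scaled CPM on a log axis), with SaABE in red, SpABE in grey and SpCBE in blue; points are libraries and short lines are group means. SaABE and SpABE libraries lie close together and below all SpCBE libraries for every gene shown except IRF1, where all 3 groups overlap. The genes were picked for display, and of the 30 tested members of the interferon list 25 had no overlap of SaABE with SpCBE.

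Promoter windows of called interferon-stimulated genes are printed with matches to the core of the interferon-stimulated response element in capitals, since these genes too moved together. The core was searched on both strands as GAAA, any 2 bases and GAAA, which reads TTTC, any 2 bases and TTTC on the opposite strand.
IFIT1: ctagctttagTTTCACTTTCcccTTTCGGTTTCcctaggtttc
IFIT3: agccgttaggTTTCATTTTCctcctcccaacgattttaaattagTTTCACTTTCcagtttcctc
ISG15: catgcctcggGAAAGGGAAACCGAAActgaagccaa
BST2: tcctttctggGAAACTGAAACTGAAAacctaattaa
They lie on GRCh38.p14 at chr10:89392497-89392539 (plus strand), chr10:89327831-89327894 (plus strand), chr1:1013374-1013409 (plus strand) and chr19:17405735-17405770 (minus strand), and in ISG15 and BST2 the matches overlap. The core stands in 16 of 23 matched promoters of the interferon list and in 0 of 22 of the heat-shock list. It stands in 29 of 481 promoters of genes called lower (6.03%), in 5 of 323 of genes called higher (1.55%), in 328 of 12219 of tested genes (2.68%) and in 996 of 27305 of all RefSeq promoters (3.65%). BST2, the virus-tethering protein tetherin, was itself scarce, with a mean of 0.221 CPM in SaABE libraries and 0.646 CPM in SpCBE libraries. No match was found in the window of DDX58, which says only that these letters are not in it.

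Targets of p53 split, with more of them lower in SaABE. Of 29 tested, 17 were lower and 8 higher at the adjusted p, where 20.6% and 20.1% of all tested genes were. By the fuller rule 7 were called lower and 1 higher, beside 4.23% and 3.80% of all tested genes, and the median log2 fold change was -0.17. Without SaABE replicate 1, 5 were higher at the adjusted p. TP53I3, a quinone reductase, had 6.04, 7.18 and 5.81 CPM in SaABE libraries, against 17.98, 18.6 and 18.04 CPM in SpCBE libraries (log2 fold change -1.52, SE 0.08, adjusted p = 4.4e-13, edgeR). FDXR, ferredoxin reductase, had 28.1, 25.5 and 25.0 CPM in SaABE libraries, against 61.8, 66.0 and 62.1 CPM in SpCBE libraries (log2 fold change -1.27, SE 0.05, adjusted p = 1.1e-15). DDB2 and MDM2, a damage sensor and the ligase that degrades p53, had log2 fold changes of -0.95 and -0.67. MDM2 had 239, 254 and 238 CPM in SaABE libraries, against 403, 390 and 370 CPM in SpCBE libraries, and SpABE libraries were near SpCBE at 374, 361 and 342 CPM. Against this trend CDKN1A, the cell-cycle inhibitor p21, was higher in SaABE, with a log2 fold change of 0.33, and PLK2 was the member called higher, at 0.57.

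Replication-dependent histone genes were lower in SaABE. Of 51 on the list 30 were tested. At the adjusted p 14 were lower and 2 higher, where 20.6% and 20.1% of all tested genes were. By the fuller rule 12 were called lower and 1 higher, beside 4.23% and 3.80% of all tested genes, and the median log2 fold change was -0.51. Without SpCBE replicate 1, 9 were lower at the adjusted p and the median was -0.38, and 1 was higher without SaABE replicate 1, SaABE replicate 3, SpCBE replicate 1 or SpCBE replicate 2. These messages normally lack a poly(A) tail, so a poly(A)-selected library holds only a small part of them, and their summed level was 114 to 126 CPM in SaABE libraries and 163 to 167 CPM in SpCBE libraries. SpABE libraries were above both at 202 to 203 CPM. HIST1H3E had 5.77, 4.97 and 6.96 CPM in SaABE libraries, against 12.9, 13.1 and 13.5 CPM in SpCBE libraries (log2 fold change -1.15, SE 0.08, adjusted p = 1.1e-10, edgeR). HIST2H4A, among the 12 largest falls but not on the list, had 16.6, 14.7 and 10.96 CPM in SaABE libraries, against 30.4, 35.7 and 44.9 CPM in SpCBE libraries. It belongs to a multigene family with near-identical copies, so its own count is uncertain.

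Genes of cell division were slightly lower in SaABE. Of 52 tested G2/M and mitosis genes 37 were lower and 3 higher at the adjusted p, where 20.6% and 20.1% of all tested genes were. By the fuller rule only 2 were called lower and 0 higher, beside 4.23% and 3.80% of all tested genes. The median log2 fold change was -0.15. HMMR, a spindle protein, had 65.1, 77.2 and 69.9 CPM in SaABE libraries, against 108, 103 and 102 CPM in SpCBE libraries (log2 fold change -0.56, SE 0.05, adjusted p = 2.6e-09, edgeR). NUSAP1, another spindle protein, was called at -0.51 and not without SaABE replicate 1, at -0.48. Of 44 DNA replication and G1/S genes 21 were lower and 10 higher, and ORC1, the origin recognition subunit, was the member called, at -0.53.

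Most of the remaining largest falls belong to no list used here. RENBP, which encodes renin-binding protein, had 1.77, 1.52 and 2.05 CPM in SaABE libraries, against 10.1, 9.81 and 10.1 CPM in SpCBE libraries (log2 fold change -2.49, SE 0.13, adjusted p = 3.1e-13, edgeR). WDR63, an axonemal dynein component, had 4.18, 4.97 and 3.76 CPM in SaABE libraries, against 12.4, 12.2 and 11.5 CPM in SpCBE libraries. SHISA2, UAP1L1 and EMC9 had log2 fold changes of -1.37, -1.30 and -1.22, and IFI6, which is on the interferon list, had -1.48.

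Deaminase genes of the cell itself were mostly scarce. Of 18 tested, 3 were higher and 8 lower in SaABE at the adjusted p, where 20.1% and 20.6% of all tested genes were. The median log2 fold change was -0.15, and 3 were called lower, beside 4.23% of all tested genes. All 3 are of the APOBEC3 family of cytosine deaminases that restrict viruses. APOBEC3B had 2.34, 2.31 and 2.31 CPM in SaABE libraries, against 3.77, 3.83 and 4.27 CPM in SpCBE libraries (log2 fold change -0.77, SE 0.11, adjusted p = 5.4e-06, edgeR). ADAR, the main RNA adenosine deaminase, had a log2 fold change of -0.12.

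Housekeeping lists had small median fold changes. Over all tested genes 20.1% passed the adjusted p upward and 20.6% downward, and 8.04% were called. Of 79 cytosolic ribosomal protein genes 40 passed the adjusted p upward and 11 downward, 0 were called, and the median log2 fold change was 0.07. Without SpCBE replicate 3, 7 passed downward. Of 13 mitochondrially encoded messages 10 passed it upward and 0 downward with a median of 0.18, and MT-CO2, a cytochrome oxidase subunit, had 1103, 1047 and 1052 CPM in SaABE libraries, against 834, 808 and 807 CPM in SpCBE libraries. Of 28 splicing regulators 21 were higher and 2 lower with a median of 0.20, and TRA2B, a splicing activator, was the member called, at 0.68. Mitochondrial ribosomal proteins had 20 of 78 higher, 23 lower (15 without SpCBE replicate 2) and a median of -0.01, and MRPL18 was the member called, at a log2 fold change of 0.97.

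**Figure D4:**
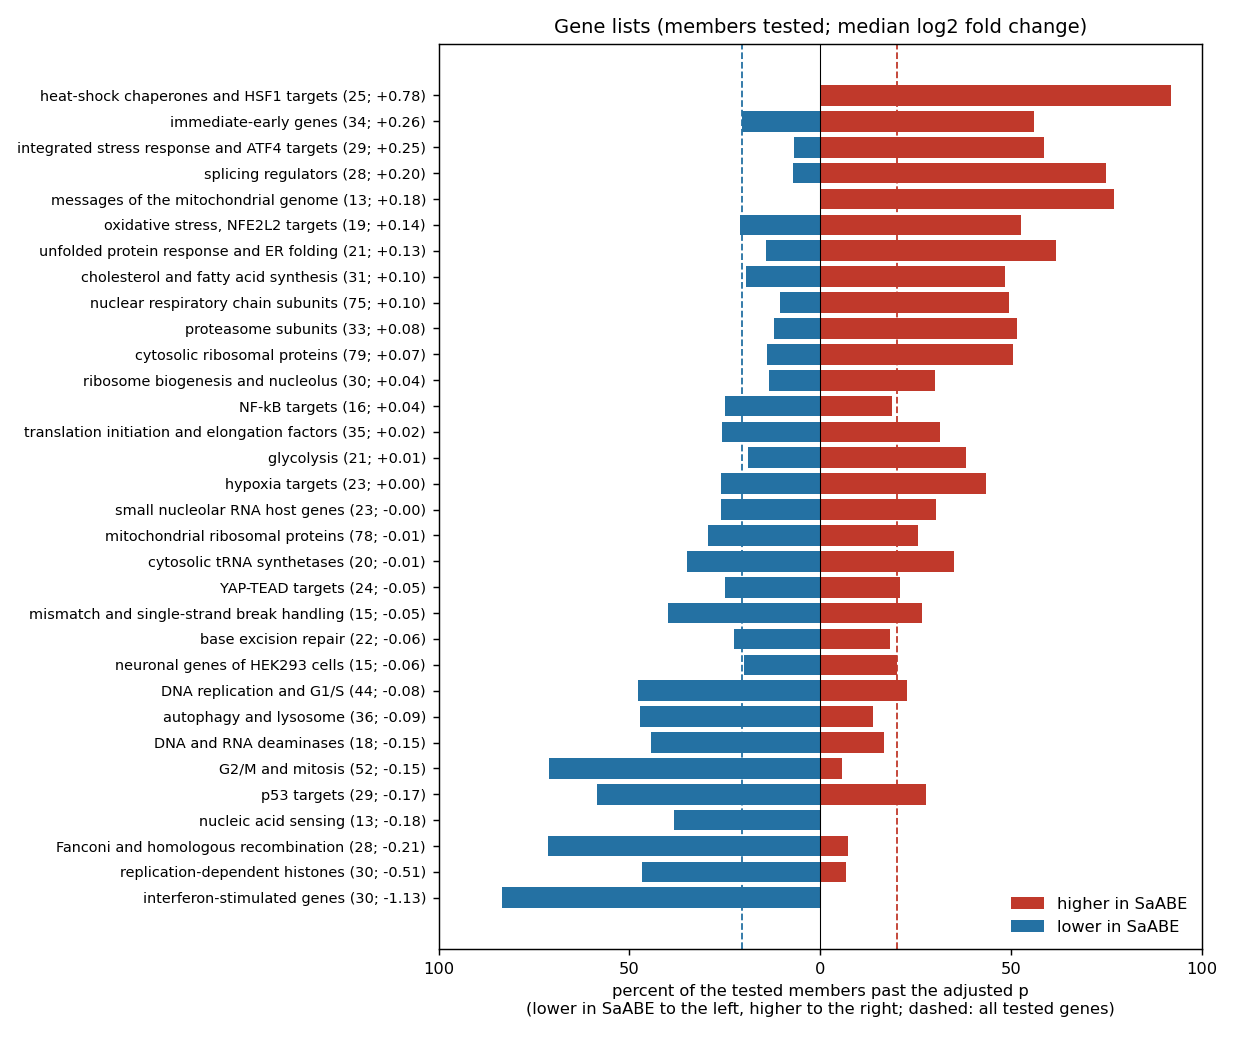
Percent of the tested members of each gene list that were higher in SaABE (red, to the right) or lower in SaABE (blue, to the left) at the adjusted p, with the number of members tested and the median log2 fold change after each name; lists with at least 10 tested members are shown. Dashed lines give the shares over all tested genes, 20.1% higher and 20.6% lower; heat-shock genes lie at the top with 23 of 25 higher and interferon-stimulated genes at the bottom with 25 of 30 lower.

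Processed pseudogenes, intronless copies of messages inserted elsewhere in the genome, were often higher in SaABE. Of 562 tested 138 were called higher (24.6%) and 9 lower (1.60%), with a median log2 fold change of 0.36. Of 14296 protein-coding genes 405 were called higher (2.83%) and 556 lower (3.89%), with a median of -0.01. Copies of ribosomal protein genes, told by symbol, had 31 of 101 called higher and a median of 0.40, while their parents as a list had 0 called and a median of 0.07. RPS3AP6 had 52.4, 62.1 and 57.0 CPM in SaABE libraries, against 25.0, 24.2 and 23.8 CPM in SpCBE libraries. Copies of heat-shock genes had 6 of 8 called higher, and the 453 others 101. Reads of a processed pseudogene can be hard to tell from those of its parent, and the treatment of reads with several matches is not given in the sources used here, so these counts are uncertain. The median was 0.41 in the 64 with at least 5 CPM, of which 22 were called higher.

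Calls also varied with other gene properties. Among protein-coding genes in 5 equal groups by level, the share called lower was 10.9% in the lowest group and 0.385% in the highest, with median log2 fold changes of -0.10 and 0.04. The share called higher was 7.50% of those with 1 exon and 1.42% of those with over 20 exons. The share called lower was also larger with 1 exon, at 9.44% against 4.31%. The median log2 fold change was 0.01 and -0.06, and the median level was 6.18 and 37.7 CPM. In 5 equal groups by transcript GC share, the median was -0.06 in the lowest group and 0.03 in the highest. Medians by chromosome lay between -0.04 on chromosome 19 and 0.02 on chromosome 16.

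NRF1, the gene targeted in the other libraries, carries no guide in these. It had 33.1, 32.1 and 31.5 CPM in SaABE libraries, against 24.4, 25.0 and 26.0 CPM in SpCBE libraries, a log2 fold change of 0.36 (SE 0.06; adjusted p = 1.9e-05, edgeR) that missed the fold threshold. Of its reported target genes, ANKRD26 had a log2 fold change of -0.46, while PUDP, at -0.04, did not pass the test, and YEATS4, at -0.15, passed it narrowly (adjusted p = 0.040).

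The same editors carried the NRF1 guides in 6 other libraries, which share no library with the comparison above. There 1854 genes were called (10.4%), 839 higher (4.73%) and 1015 lower (5.72%) in SaABE. Called in the same direction in both were 881 genes, 61.8% of those called with the intergenic guides and 47.5% of those called with the NRF1 guides, and 4 were called in opposite directions. Of the 472 intergenic-guide calls with at least 5 CPM, 364 (77.1%) were called in the same direction with the NRF1 guides and 0 in the opposite one. All 24 genes named as largest rises or falls kept their direction there, as did 1342 of all 1426 called genes (94.1%). At the adjusted p, which 22.1% of all tested genes passed upward there and 22.7% downward, the heat-shock list had 22 of 25 members higher and 1 lower with a median log2 fold change of 0.95, and the interferon list had 0 higher and 27 of 30 lower with a median of -1.03. NRF1-guide libraries still differ in editor and guide together, so this comparison does not separate nickase from deaminase either.

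**Figure D5:**
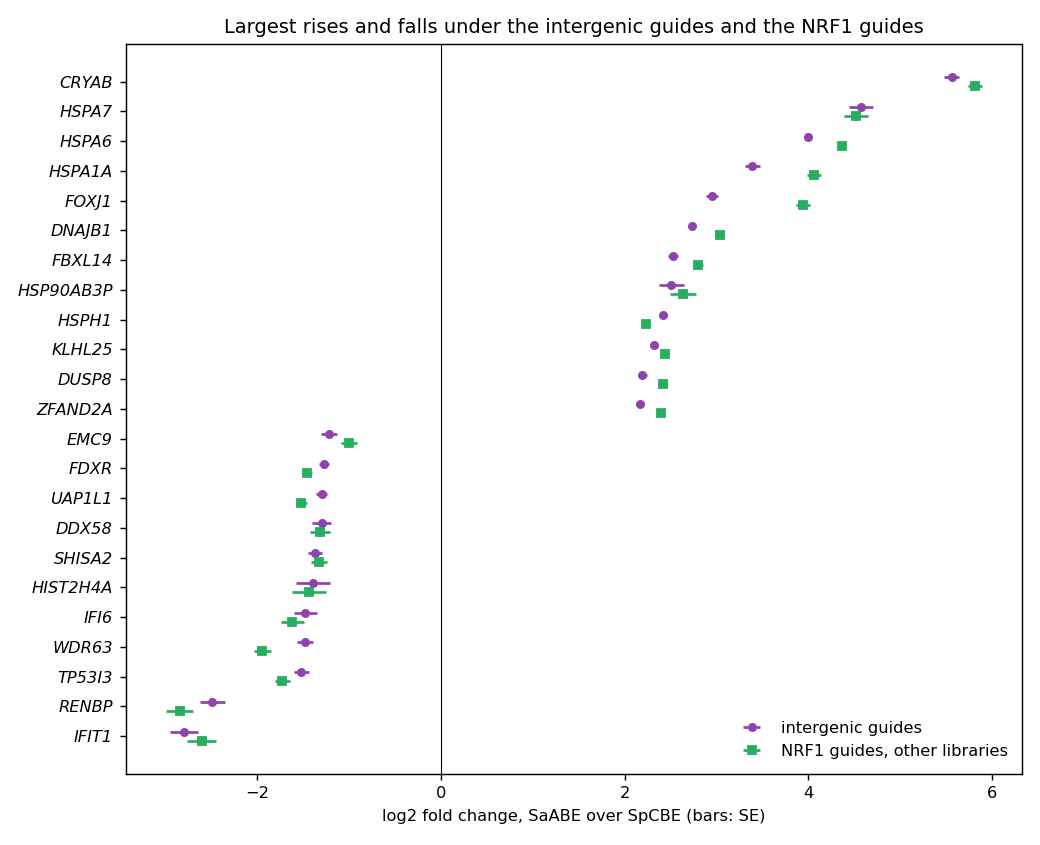
Log2 fold changes of SaABE over SpCBE for the 12 largest rises and 11 of the 12 largest falls, with intergenic guides (purple circles) and with NRF1 guides in other libraries (green squares); bars are standard errors. All 23 genes shown lie on the same side of 0 under both guides, as do 94.1% of all called genes. CRYAB lies at 5.56 and 5.82.

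SpABE libraries with the SpCBE site share the nickase and guide of SpCBE and the deaminase of SaABE, and are given as levels beside the contrast. SaABE against SpABE had 1248 called genes (7.03%), and SpABE against SpCBE had 1098 (6.19%), comparisons that share libraries with the main one and with each other. For the heat-shock list the median log2 fold change was 0.40 for SaABE over SpABE and 0.38 for SpABE over SpCBE. For the interferon list the same medians were -0.09 and -0.87, and for the histone list -0.68 and 0.44. For CRYAB the steps were 1.99 and 3.57, for CHAC1 1.71 and 0.16, and for IFIT1 -0.10 and -2.70.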

How the data were processed

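Polyadenylated RNA was measured in 18 libraries, 3 for each of 6 groups of editor and guide, grouped by their labels. The authors cut adapters with Cutadapt 1.18 and aligned with STAR 2.7.0f (2-pass) to hg38 with GENCODE 30. DESeq2 1.46.0 is also named in the submitters' processing notes. The counting program, its strand setting and how it treated multi-matching reads were not stated there. The authors deposited estimated counts per gene, unnormalized, with 58870 genes in 36 sample columns, of which 18 were not used. Fractional values made up 19.6% of the nonzero entries, and all were rounded first. The planned test had assumed integers. No line lacked a gene, and the count totals are each library's depth.

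Genes kept by edgeR 4.0.16 filterByExpr (17743) were TMM-scaled and fitted with quasi-likelihood models of 6 group means over 18 libraries (R 4.3.3). The biological coefficient of variation was 3.10%. The labels name no separate cultures for replicates, so the spread behind each p-value may be technical. All replicate pairs differed by more than sampling noise. Data were simulated for the SaABE and SpCBE comparison (17478 genes), with changes given only to genes with a mean of at least 5 CPM. Calls recovered 0% of genes given a 1.25-fold change, which is below the fold threshold, 94% at 1.5-fold and 100% at 2-fold. There were 7 false calls. Recovery of genes under 5 CPM was not tested.

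Named genes were the 12 largest rises and 12 largest falls among called genes with a mean of at least 5 CPM, a symbol that is no clone name and no overlap between the groups, NRF1 and 3 of its targets, up to 4 members per list with the smallest p, and up to 2 tested genes nearest each guide site. Others are members of lists or were chosen after their values were seen, and some genes are not reported here. The genes, the 37 lists and the tests were chosen with earlier results of these data known. Alternatives were other scalings, filters and sample sets, DESeq2 1.42.0, glmTreat, a replicate block, leaving out each library and, added after seeing the data, summed near-identical copies and leaving out each NRF1-guide library. Coordinates and biotypes came from GENCODE 44 on hg38 (17641 tested genes found), and promoters from RefSeq on GRCh38.p14 (12219 found).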

Additional observations from a re-analysis of the deposited data

Results flagged for a closer look

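For 9 named genes the SaABE over SpCBE fold change differed between the intergenic-guide and NRF1-guide libraries, tested as an interaction across all genes in edgeR at an adjusted p under 0.05 and a difference over 0.5 on the log2 scale. VGF, CLU, CYP4F3, INPP5D and NUPR1 were chosen after their values were seen. The share of all tested genes that passes this rule is not given here. The count of 9 therefore describes single genes and is not set against a background here.

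NUPR1, a stress-induced chromatin protein, differed by 1.64 (adjusted p = 6.4e-06, edgeR), with 11.7, 11.002 and 12.05 CPM in SaABE intergenic libraries, against 3.50, 4.28 and 3.47 CPM in SpCBE intergenic libraries, and a log2 fold change of -0.02 with the NRF1 guides. INPP5D, an inositol phosphatase, differed by 1.03 (log2 fold changes of 1.496 with the intergenic and 0.47 with the NRF1 guides), CYP4F3 by 0.82 (2.10 and 1.27) and MRPL18, a mitochondrial ribosomal protein, by 0.77 (0.97 and 0.21).

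The other differences were negative, with larger rises under the NRF1 guides. FOXJ1 differed by -0.99 (2.95 with the intergenic and 3.94 with the NRF1 guides), VGF by -0.79 (2.01 and 2.81), HSPA1A by -0.67 (3.39 and 4.07), CLU by -0.53 (1.94 and 2.48) and EGR1 by -0.52 (1.99 and 2.51). For HSPA1A the near-identical copy HSPA1B leaves the share of reads uncertain.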

How the results depend on the processing

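Under glmTreat, which tests against the 0.5 threshold itself, 370 genes were called with the intergenic guides (218 higher, 152 lower) and 600 with the NRF1 guides (335 higher, 265 lower), as its construction requires larger changes. All other settings kept these counts within 1.5 times. Leaving out 1 library at a time gave 1275 to 1385 called genes with the intergenic guides (610 to 663 higher, 665 to 743 lower) and 1733 to 1909 with the NRF1 guides (751 to 849 higher, 974 to 1081 lower). The replicate numbers did not pair the libraries: deviations of same-numbered SaABE and SpCBE libraries had correlations of -0.09, -0.20 and 0.09 over 10023 genes. With a replicate block 1414 genes were called over 18 libraries and 1208 with the 6 libraries alone, and 1850 and 1780 with the NRF1 guides, and not every library correlated best with its own number. The 24 largest rises and falls kept their direction and call in all 15 alternative fits. They had been chosen as called and largest in these same libraries, which made that outcome likely beforehand. Over all named genes and listed members, 5608 of 5714 alternative values kept both, 72 fell below the call, 34 came above it and none turned direction with a call. Of the genes described above, APOBEC3B, ATM, BST2, HMMR, IFIH1, ORC1 and PLK2 were called except under glmTreat. The median fold change of all genes moved by under 0.1 under every scaling.

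Depth limits genes under 5 CPM, which made up 954 of the 1426 calls. Interferon genes rest on few counts, and a gene listed at 0 gives a bound only. Copies that share reads (HSPA1A and HSPA1B, HSPA6 and HSPA7, histones, processed pseudogenes) are uncertain. Nickase and guide cannot be told apart, and no editing outcome was read from these counts.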

Other observations

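Some genes outside the lists, chosen after their values were seen, also separated the groups. TXNIP, an inhibitor of thioredoxin, had 89.9, 92.6 and 97.2 CPM in SaABE libraries, against 39.7, 37.6 and 38.6 CPM in SpCBE libraries (log2 fold change 1.27, SE 0.04, adjusted p = 9.5e-18, edgeR). MXD1, a partner of MAX that opposes MYC, had 79.1, 82.3 and 81.8 CPM in SaABE libraries, against 33.7, 33.0 and 28.8 CPM in SpCBE libraries (log2 fold change 1.34, SE 0.05). APOE, a lipid carrier, had 14.8, 12.5 and 13.7 CPM in SaABE libraries, against 27.6, 25.5 and 26.9 CPM in SpCBE libraries (log2 fold change -0.97, SE 0.06). The groups did not overlap for any of the 3 genes, which also holds for 8350 of the 17743 tested genes.

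AHSP, the alpha-globin chaperone, had 0.374, 0.296 and 0.462 CPM in SaABE libraries and was listed at 0 in all 3 SpCBE libraries. Set against 3 counts over the SpCBE group, 0.0270 CPM, it was at least 13.987-fold higher in SaABE. The SpABE libraries were above both, at 1.35, 1.204 and 1.19 CPM.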
